A study of Mus musculus with 24 samples.

Results

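The genes described here are 10 genes of bone morphogenetic protein (BMP) and activin signalling, chosen by name as the ligands Bmp7, Bmp2, Mstn and Inhbb, the receptors Acvr1, Acvr1c, Acvr2a and Bmpr2, the antagonist Grem1 and the target Id1. In the table of reduced representation bisulfite sequencing (RRBS) counts, 263 of 65535 MspI fragments were annotated to them, of which 98 had enough calls to be tested. DNA came from brown adipose tissue (BAT) of infant female C57BL/6J mice at postnatal day 12. The 12 VEH litters had dams gavaged with olive oil, and the 12 DDT litters had dams gavaged with o,p'-DDT and p,p'-DDT in olive oil from mid-gestation until the first postnatal week. A library was a pool of BAT from female littermates, so the litter was the replicate and differences between pups of a litter were not seen. Which cells of the tissue carried a methylated base cannot be told from such a pool, and the BAT markers Ucp1, Cidea, Prdm16 and Adipoq had 0 fragments in the table, while Fabp4 had 5. The table held chromosomes 1 and 2 and ended within chromosome 3 after 65535 fragments, and genes elsewhere were not analysed here.

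MspI cuts DNA at CCGG, and after bisulfite conversion a CpG that reads as C was methylated and a CpG that reads as T was not. Methylation levels are percentages of methylated calls among a fragment's CpG calls, were computed only from 10 or more calls, and were tested where 8 or more libraries of each group had one. Libraries held between 8371958 and 14124652 calls, and a library's median tested fragment of these 10 genes had between 90.5 and 394 calls. Among fragments with intermediate VEH levels, DDT replicate 4 and DDT replicate 12 most often had a level of at most 1% or at least 99%. Of the 31 fragments with a mean VEH level between 10% and 90%, DDT replicate 4 had a level at 18. At 12 of these (66.7%) the level was at most 1% or at least 99%, against 54.7% of such fragments over the table. DDT replicate 12 had such a level at 4 of 28 fragments (14.3%, against 4.22% over the table). Each of the other 22 libraries had such a level at 0 or 1 fragments, and at 0.39% to 3.02% over the table. DDT replicate 4 also had a level at only 66 of the 98 tested fragments, against 86 or more in the others. DDT replicate 4 was the lowest library at 35 of these 66 (53.0%), against 52.4% over the table. The library with 86 levels was DDT replicate 3, which also had the 3.02% over the table. DDT replicate 3 was the highest library at 12.96% of its fragments over the table, against 10.5% for DDT replicate 12. It was the lowest library at 4.75%, against 15.5% for DDT replicate 12.

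BMPs and activins are secreted dimers of the transforming growth factor beta family. They bind a type II receptor such as Bmpr2 or Acvr2a, which phosphorylates a type I receptor such as Acvr1 or Acvr1c, and the type I receptor in turn activates SMAD proteins that enter the nucleus. BMP7 is known for committing precursors to the brown adipocyte fate, BMP2 for acting on adipocyte precursors more broadly, and Id1 is a classic gene switched on by BMP through SMADs. CpG islands, the CpG-rich stretches at many gene starts, are as a rule unmethylated, while scattered CpGs in introns and between genes are as a rule methylated.

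The sequences below are those the levels turn on: fragments at gene starts, neighbouring fragments with different levels, and the Bmp7 intron fragment with the smallest p in the comparison of DDT with VEH. They were read from GRCm38, plus strand, 5′ to 3′. CpGs are in capitals, except in Grem1, where the capitals mark the motif GGCGCC.

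Bmp2, just upstream of the start (chr2:133552014-133552117): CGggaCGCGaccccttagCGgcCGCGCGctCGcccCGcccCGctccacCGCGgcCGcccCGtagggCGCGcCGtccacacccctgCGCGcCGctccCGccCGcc
Bmp2, coding exon (chr2:133560915-133560986): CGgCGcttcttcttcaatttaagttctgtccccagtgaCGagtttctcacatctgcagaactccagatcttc
Bmp7, intron (chr2:172897008-172897099): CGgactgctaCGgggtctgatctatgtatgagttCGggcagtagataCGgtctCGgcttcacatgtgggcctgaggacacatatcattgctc
Inhbb, coding exon, first of a pair (chr1:119420738-119420802): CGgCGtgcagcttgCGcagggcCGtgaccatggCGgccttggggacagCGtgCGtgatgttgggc
Inhbb, coding exon, second of a pair (chr1:119420803-119420868): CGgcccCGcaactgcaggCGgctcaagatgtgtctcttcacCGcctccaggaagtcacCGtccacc
Acvr1c, intron (chr2:58341804-58341859): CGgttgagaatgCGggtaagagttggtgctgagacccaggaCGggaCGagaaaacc
Acvr2a, just upstream of the start (chr2:48813875-48813961): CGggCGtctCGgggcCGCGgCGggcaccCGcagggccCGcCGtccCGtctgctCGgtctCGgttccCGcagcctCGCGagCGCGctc
Acvr2a, intron, first of a pair (chr2:48853865-48853899): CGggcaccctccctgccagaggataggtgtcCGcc
Acvr2a, intron, second of a pair (chr2:48853900-48853948): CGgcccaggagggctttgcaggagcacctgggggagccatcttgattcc
Bmpr2, island edge, first of a pair (chr1:59762848-59762898): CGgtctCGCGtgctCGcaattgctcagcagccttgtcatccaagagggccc
Bmpr2, island edge, second of a pair (chr1:59762899-59763021): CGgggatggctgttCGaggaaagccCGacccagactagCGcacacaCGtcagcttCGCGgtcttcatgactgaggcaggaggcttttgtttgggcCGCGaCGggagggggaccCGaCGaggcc
Grem1, just upstream of the start (chr2:113758695-113758762): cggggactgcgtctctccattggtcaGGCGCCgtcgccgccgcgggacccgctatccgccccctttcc
Id1, 12052 bp upstream (chr2:152724143-152724200): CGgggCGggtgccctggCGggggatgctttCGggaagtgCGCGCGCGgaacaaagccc
Id1, 10683 bp upstream (chr2:152725473-152725569): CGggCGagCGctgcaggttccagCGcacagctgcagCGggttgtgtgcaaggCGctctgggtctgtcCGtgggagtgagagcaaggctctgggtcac
Id1, 998 bp upstream (chr2:152735174-152735254): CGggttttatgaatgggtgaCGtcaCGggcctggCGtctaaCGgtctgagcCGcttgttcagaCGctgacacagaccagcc

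In VEH, the islands of these genes were lowly methylated and most of their other fragments were not. The 59 tested fragments within CpG islands belonged to 7 genes and had a median level of 3.12%, with a range of 0.85% to 19.2%. The 33 fragments outside islands had a median of 68.6%, and 14 of them exceeded 80%. Between these classes, the 6 fragments in island shores or shelves, the flanks of an island, had a median of 6.59%. Over all tested fragments of the table the medians were 3.80% within islands and 51.4% outside them. The level went down as CpG density went up, with a Spearman correlation of -0.75 over the 98 fragments, which lie in few loci and share the libraries. The 98 mean levels of VEH and of DDT had a Pearson correlation of 0.998 and a Spearman correlation of 0.947. With levels that range this widely between fragments, these values do not measure an effect of DDT.

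**Figure D1:**
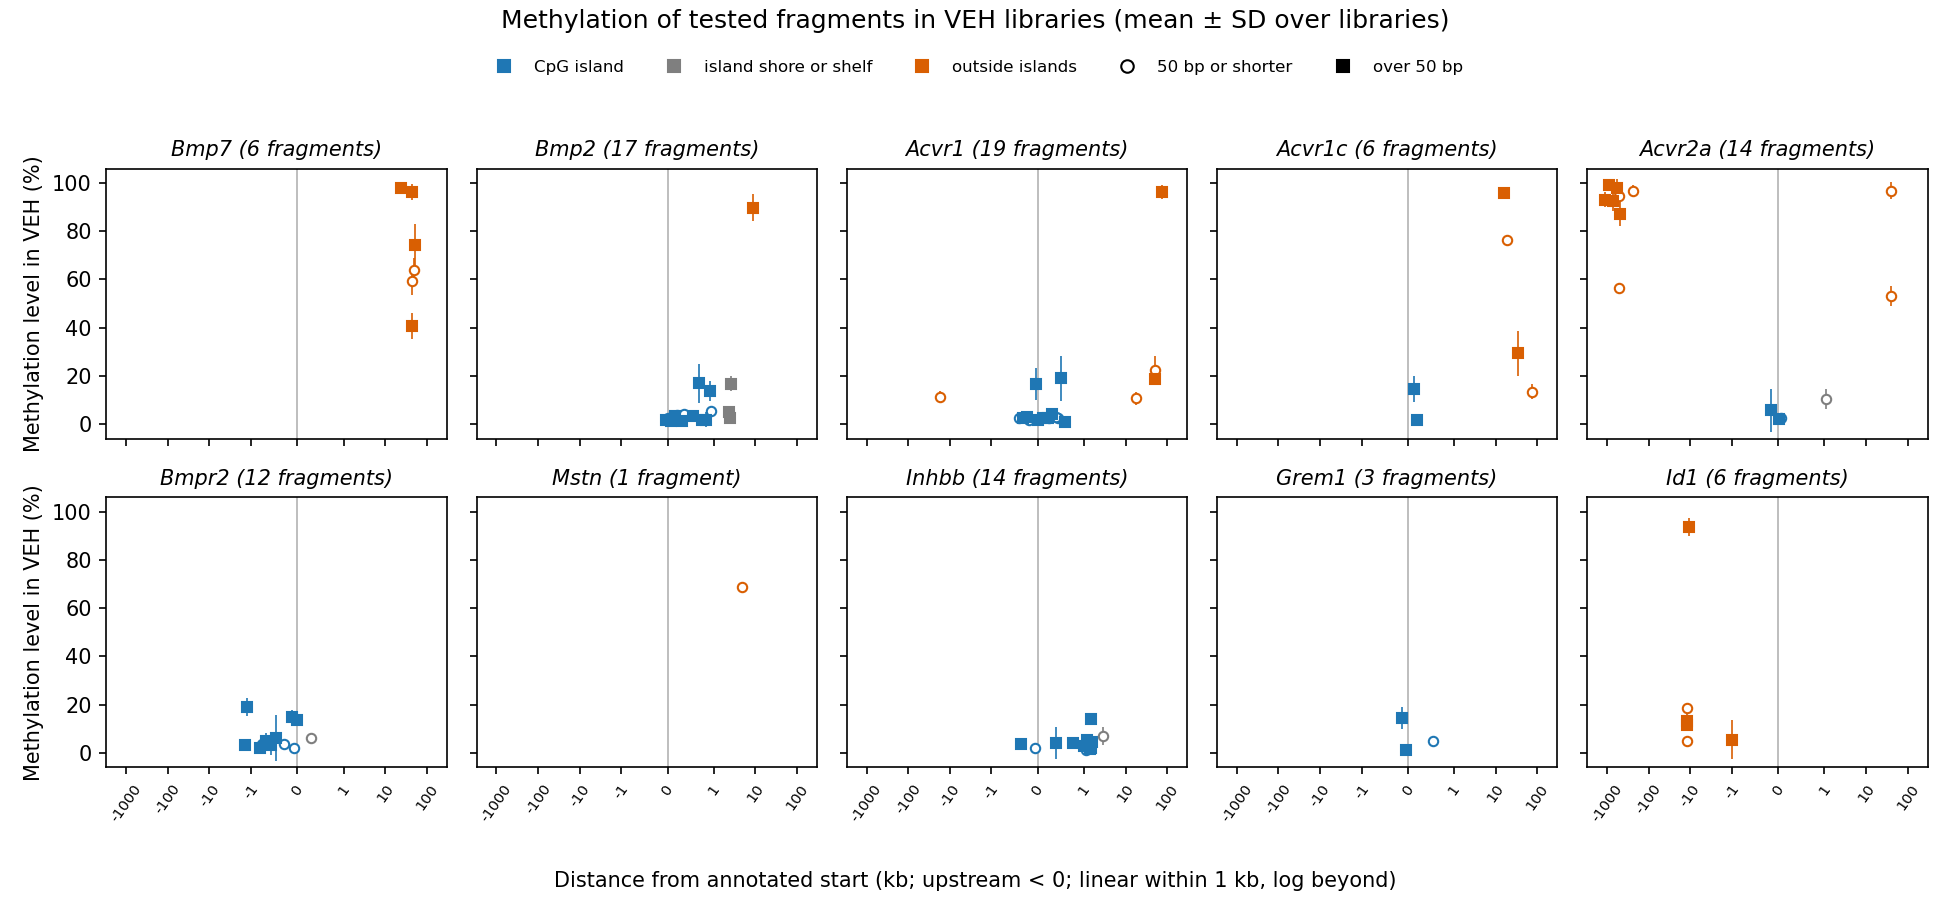
Mean methylation level in VEH (y axis, %, error bars SD over libraries) of each tested fragment against its distance from the annotated gene start (x axis, kb, linear within 1 kb and log beyond), with a panel for each gene. Island fragments (blue) lie at or under 19.2%, and fragments outside islands (orange) range from 5.12% to 99.3%.

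Fragment length moved with the level as well. Outside islands, the 15 fragments of 50 bp or shorter had a median of 56.4% and the 18 longer ones a median of 91.1%, and over the table these medians were 40.5% and 64.2%. Among fragments outside islands with a single CpG, the table's medians were 39.5% for 1816 short and 92.5% for 660 longer fragments. Within islands the 9 fragments over 100 bp had a median of 14.5% and the 50 others of 3.01%, against 9.82% and 3.44% over the table. Reads were 50 bp long, so a short fragment was read to its far end, where library preparation fills in new bases. Whether such bases were removed before calling is not given in the sources used here, and the part of read length in these levels was not tested.

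**Figure D2:**
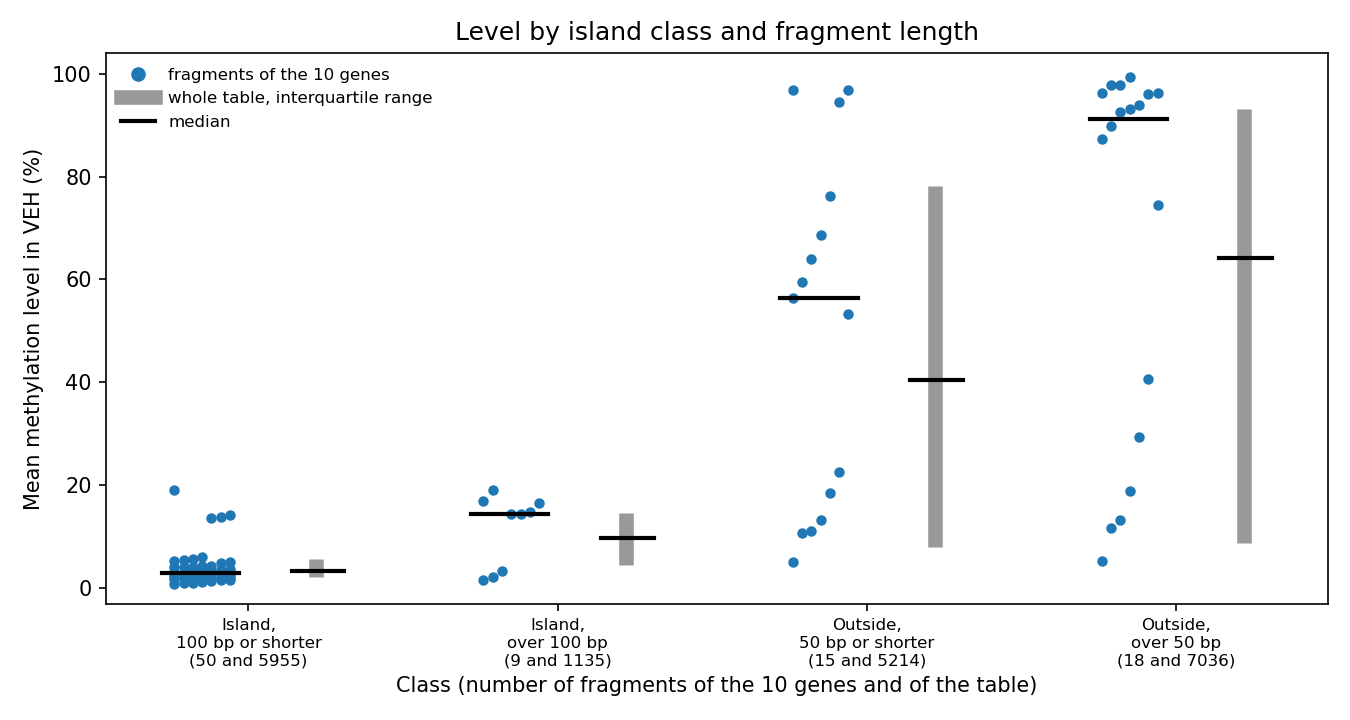
Mean VEH level (y axis, %) by island class and fragment length (x axis), with each fragment of the 10 genes as a point and the interquartile range of the whole table as a grey bar, medians as black lines. Short fragments outside islands have the lower median in both sets (56.4% against 91.1%, and 40.5% against 64.2%).

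Ordered by the tested fragment nearest to the annotated start, the VEH levels were 1.20% ± 1.15 in Grem1, 1.79% ± 0.58 in Acvr1, 1.96% ± 1.95 in Acvr2a, 2.18% ± 0.44 in Inhbb and 2.62% ± 0.56 in Bmp2 (SD, n = 12). Each of these differed from the next by less than the larger SD of the pair. Id1 followed with 5.38% ± 8.10 (SD, n = 11), a spread that covers all 5 genes before it. Bmpr2 (13.8% ± 1.88) and Acvr1c (14.5% ± 5.45) were higher and within 1 SD of each other. The order uses the deposited starts, and for Bmpr2 the fragment over the GENCODE start, 802 bp upstream of the deposited one, was at 2.16% ± 1.80, among the low genes. Mstn, at 68.6% ± 1.44, and Bmp7, at 97.9% ± 1.54, stood apart, but their nearest tested fragments lay 4676 bp and 23787 bp inside the genes, so their starts were not seen.

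Bmp2, a ligand (chr2:133552159-133562885, plus strand), had 17 tested fragments, 13 of them in the island that spans its start. The island fragments had levels between 1.11% and 16.9%. The fragment just upstream of the start, with 22 CpGs printed above, was at 1.71% ± 1.99, and the coding fragment near the end of the gene, with 3 CpGs, was at 89.8% ± 5.47 (SD, n = 12). Inside the island a 119 bp fragment, 670 bp past the start, was at 16.9% ± 8.13, and the next fragment, 748 bp past the start, at 1.61% ± 1.78. Levels therefore differed between neighbouring fragments of the island, and the part of fragment length in this was not tested.

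Bmp7 (chr2:172868012-172940321, minus strand) is the ligand best known for brown fat formation. Its 6 tested fragments all lay between 23787 and 51485 bp inside the gene, 5 in introns and 1 in a coding exon. The coding fragment was nearly fully methylated, at 97.9% ± 1.54, and the levels in the introns ran from 40.7% ± 5.33 in a 198 bp fragment to 96.2% ± 3.40 in the printed one. The other 18 Bmp7 fragments, with a median of 1 call, were not tested.

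Mstn, the gene of myostatin, a ligand that restrains muscle growth (chr1:53061640-53068079, plus strand), had 1 tested fragment of 3. It covered coding and untranslated sequence of an exon and had a VEH range of 66.7% to 70.4%.

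Inhbb encodes the beta B subunit shared by activin B and inhibin B (chr1:119415465-119422248, minus strand). Of its 14 tested fragments 13 were in 1 island that runs from upstream of the start into coding sequence, with a median of 3.20%. Here 2 neighbouring coding fragments, printed above and of 65 and 66 bp, differed in level. The first was at 14.2% ± 1.72 and the second at 1.88% ± 2.26 (SD, n = 12), and every other island fragment of Inhbb was at or under 5.26%.

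Acvr1, a type I receptor for BMPs and activins (chr2:58388644-58567157, minus strand), had the most tested fragments, 19, with 14 in the island at its start. Of these 12 were under 10%, with a lowest level of 0.85% ± 0.65. The fragment adjoining that lowest one, in the same intron, was at 19.1% ± 9.35. Away from the island the levels were 96.2% ± 2.92 in an intron 73144 bp inside, 22.5% ± 5.82 and 18.9% ± 2.58 in a pair of adjoining fragments in an untranslated exon 51045 and 51006 bp inside, 10.7% ± 2.58 in an intron 17327 bp inside, and 11.2% ± 2.63 at 17532 bp upstream. The 5 island fragments upstream of Acvr1 lie within Upp2, a uridine phosphorylase gene, 4 of them in its exons.

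Acvr1c, a type I receptor for activins and related ligands that is prominent in adipose tissue (chr2:58267453-58357895, minus strand), had 6 tested fragments. The 2 at its start were 65 and 160 bp long and at 1.87% ± 0.82 and 14.5% ± 5.45. In its introns the levels were 96.0% ± 0.97 in the printed fragment, 76.2% ± 2.20, 29.3% ± 9.29 and 13.4% ± 3.09. The widest spread between VEH libraries in this gene, 12.9% to 45.7%, was at the 29.3% fragment.

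Acvr2a is a type II receptor that binds activins, myostatin and some BMPs (chr2:48814109-48903269, plus strand). The annotation assigned most fragments of the 10 genes to it, 87 of them without a test, and its 14 tested ones reached 1128533 bp upstream. The 3 island fragments at its start were at 1.96% to 5.69%. Outside islands, 8 of 10 fragments exceeded 80%, with the highest at 99.3% ± 0.76. Both exceptions adjoined or lay near a highly methylated fragment: 56.4% ± 1.46 next to 94.5% ± 4.70 in a noncoding exon of Gm13481, and 53.3% ± 4.10 next to 96.8% ± 3.48 in the intron of Acvr2a printed above. In the intron the lower fragment was 35 bp long with 2 CpGs, and the higher one 49 bp with 1 CpG.

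Bmpr2, the main type II receptor for BMPs (chr1:59763400-59879014, plus strand), was seen only at its start, with 12 tested fragments. Of these 9 were under 10%. The higher ones were at 13.8% ± 1.88, 14.9% ± 2.75 and 19.2% ± 3.72, and the last of these, 123 bp long, followed directly on a 51 bp fragment at 3.11% ± 1.75, both printed above. The deposited annotation places the start of Bmpr2 at 59764279, downstream of the GENCODE start, so most fragments it calls upstream lie in the first exon.

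Grem1 encodes gremlin, a secreted protein that binds BMPs and keeps them from their receptors (chr2:113746164-113758646, minus strand). Its 3 tested fragments were all in the island at the start. The printed fragment with GGCGCC was at 1.20% ± 1.15, and the 206 bp fragment next to it at 14.4% ± 4.45. GGCGCC is a GC-rich element that SMADs of the BMP pathway are known to bind, and as a palindrome it reads the same on both strands. It occurred in 11.9% of 32817 RefSeq promoter windows (250 bases before to 50 after the start) and, among the 8 windows of 7 of the 10 genes, in those of Grem1 and Bmpr2. The activin SMAD palindrome GTCTAGAC, which does not contain GGCGCC and is not contained in it, occurred in 0.213% of the windows and in 0 of these 8. Bmp7, Bmp2 and Id1 were not among the windows. The Bmpr2 window (chr1:59764029-59764328) and its motif lie downstream of the GENCODE start of Bmpr2.

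Id1, an inhibitor of differentiation and a direct BMP target (chr2:152736251-152737410, plus strand), had 6 tested fragments, all upstream and all outside islands. The 4 between 11988 and 12194 bp upstream were at 5.12% ± 0.96, 18.5% ± 1.86, 11.8% ± 1.67 and 13.3% ± 3.40. The printed fragment 10683 bp upstream was at 93.8% ± 3.69 (SD, n = 12), above the means of the group of 4. At 998 bp upstream the level was 5.38% ± 8.10, where VEH libraries ranged from 0% to 25.0% with a median of 2.04% on a median of 49.5 calls. Low levels outside islands were not particular to Id1: of the table's 12250 tested fragments outside islands, 3396 were under 10%.

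The comparison of DDT with VEH asked whether perinatal exposure changed the methylation of these genes. No fragment or gene of the 10 passed. With an F test of the 2 group means and Benjamini-Hochberg adjustment over all 20225 tested fragments, 0 of the 98 had an adjusted p under 0.05, and the table as a whole had 0%, with a smallest adjusted p of 0.869. At an unadjusted p under 0.05 there were 5 of the 98 (5.10%), against 845 of 20225 in the table (4.18%). All 5 were lower in DDT, as were 593 of the 845 (2.93% of the table lower and 1.25% higher). Over all 98, 54 were lower in DDT (55.1%), against 56.9% of the table. Within islands 4 of 59 had an unadjusted p under 0.05 (6.78%) and 36 were lower in DDT (61.0%), against 3.64% and 55.7% of the table's island fragments with a VEH level under 20%. Outside islands 17 of 33 were lower (51.5%), against 57.2%. The p-values that follow are from this F test unless a permutation test is named. Without DDT replicate 4, 3 of 98 had an unadjusted p under 0.05 (3.06%, against 4.24% of the table), 2 of them lower. Leaving out VEH replicate 2 or 3 or DDT replicate 2, 5, 6, 7 or 8 also gave 3. Over the table, 489 of 852 fragments under this threshold were lower in DDT without DDT replicate 4, and 51.95% of fragments at any p. Without DDT replicate 12 as well, 445 of 882 were lower and 49.0% at any p, so the table's excess of lower fragments was not there without these libraries, and of the 10 genes' fragments 2 of 3 under the threshold and 46 of 95 at any p were lower. Differences between group means ran from -6.67 to 6.24 percentage points with a median of -0.14. For 66 of the 98 fragments the 95% interval of the difference lay within 5 points of 0, against 11720 of 20225 over the table. Within islands these were 48 of 59, but the median VEH level there was 3.12%, so 5 points is a wide band. Outside islands they were 15 of 33, and limits of the intervals reached -19.6 and 19.8.

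**Figure D3:**
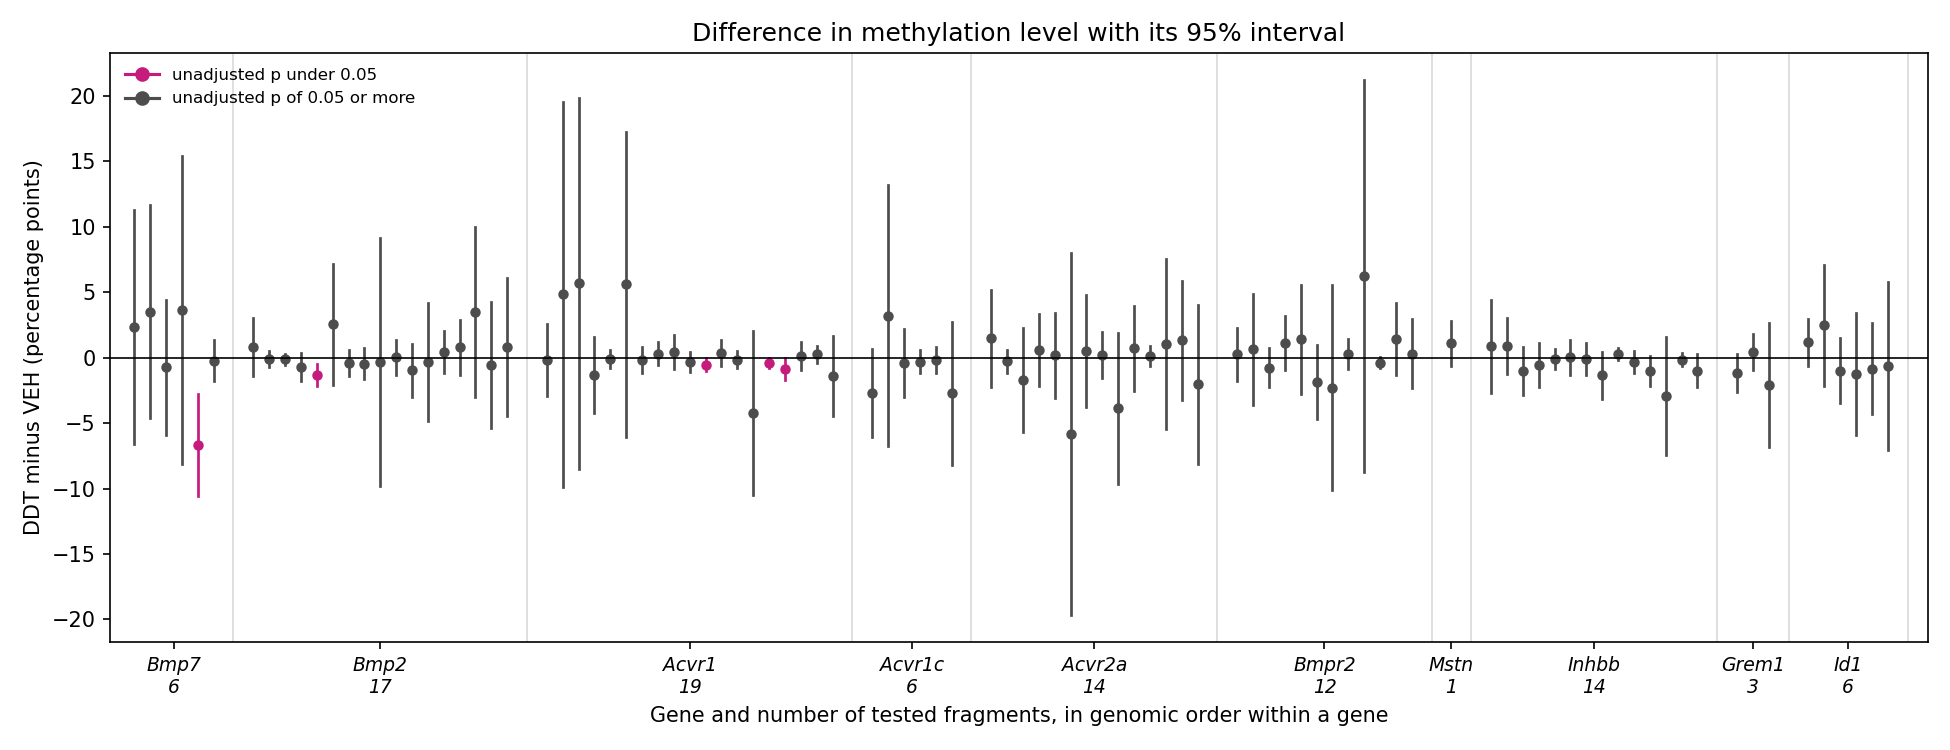
Difference in level, DDT minus VEH in percentage points (y axis), with its 95% interval, for the 98 tested fragments in genomic order within each gene (x axis). The 5 fragments with an unadjusted p under 0.05 (pink) are all below 0, and the intervals of the others include 0.

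Of the 5, the largest difference was in the Bmp7 intron, at the printed fragment 43312 bp inside the gene. Its VEH libraries lay between 92.2% and 100%, with a median of 95.2%, and its DDT libraries between 81.8% and 96.2%, with a median of 88.5%. The groups overlapped, and 7 of 8 DDT libraries were under the VEH median. The means were 96.2% ± 3.40 (SD, n = 10) and 89.5% ± 4.36 (SD, n = 8), a difference of -6.67 percentage points (exact permutation p = 0.00238, two-sided, unadjusted), with a 95% interval of -10.5 to -2.80. The median library had 27 calls here, and the 6 libraries under 10 calls, DDT replicate 4 among them, have no part in it. With a minimum of 5 calls the difference was -3.76 (p = 0.237) and with no minimum -2.07 (p = 0.495), so the unadjusted p under 0.05 depended on the call minimum. The other Bmp7 fragments gave values of both signs, and the nearest tested fragments on its sides, at 40.7% and 97.9% in VEH, differed by 3.63 (p = 0.528) and -0.22 (p = 0.773) points. The former rested on DDT replicate 12, without which it was -1.94 (p = 0.357).

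In Bmp2 the fragment with the smallest p was 32 bp long and lay 202 bp past the start, in the untranslated first part of the transcript. VEH libraries were between 2.46% and 4.72%, with a median of 3.43%, and DDT libraries between 0% and 3.76%, with a median of 2.52%. The ranges overlapped, with 10 of 12 DDT libraries under the VEH median. The means were 3.59% ± 0.65 and 2.29% ± 1.22 (SD, n = 12 each), a difference of -1.31 points (permutation p = 0.00148, two-sided, unadjusted, adjusted p = 0.869). DDT replicate 4, with 929 calls, and DDT replicate 12 were both at 0%, and the difference was -1.10 (p = 0.00585) without DDT replicate 4 and -0.85 (p = 0.00674) without both. The nearest fragments on its sides, 155 and 313 bp past the start, differed by -0.72 and 2.53 points (p = 0.172 and p = 0.270). The latter rested on DDT replicate 2, at 26.4%, without which it was 0.29 (p = 0.666).

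Acvr1 held the other 3, all in the island at its start. At 192 bp upstream, VEH libraries lay between 1.26% and 2.50% (median 1.65%) and DDT libraries between 0.08% and 2.05% (median 1.41%), for a difference of -0.43 points (permutation p = 0.0259, unadjusted). At 217 bp inside the gene the medians were 2.61% in VEH and 2.20% in DDT, with a difference of -0.55 (p = 0.0331, unadjusted). At 234 bp upstream they were 2.74% and 2.25%, with a difference of -0.85 (p = 0.0476, unadjusted). The groups overlapped in all 3, and DDT replicate 4 was the lowest library, with 4 methylated of 5273 calls, 3 of 665 and 5 of 9167. Without it the differences were -0.31, -0.40 and -0.66, with p-values of 0.0522, 0.0581 and 0.0925, so none of the 3 stayed under 0.05. Without DDT replicate 12 as well they were -0.26, -0.42 and -0.49. The fragments share an island, and the 2 upstream ones adjoin. The island fragment starting at 58567561 differed by 0.51 (p = 0.0213) without DDT replicate 4 and by 0.44 (p = 0.043) without both. The one starting at 58566909 differed by -0.16 (p = 0.642) and -0.45 (p = 0.0245), so signs within the island were mixed.

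**Figure D4:**
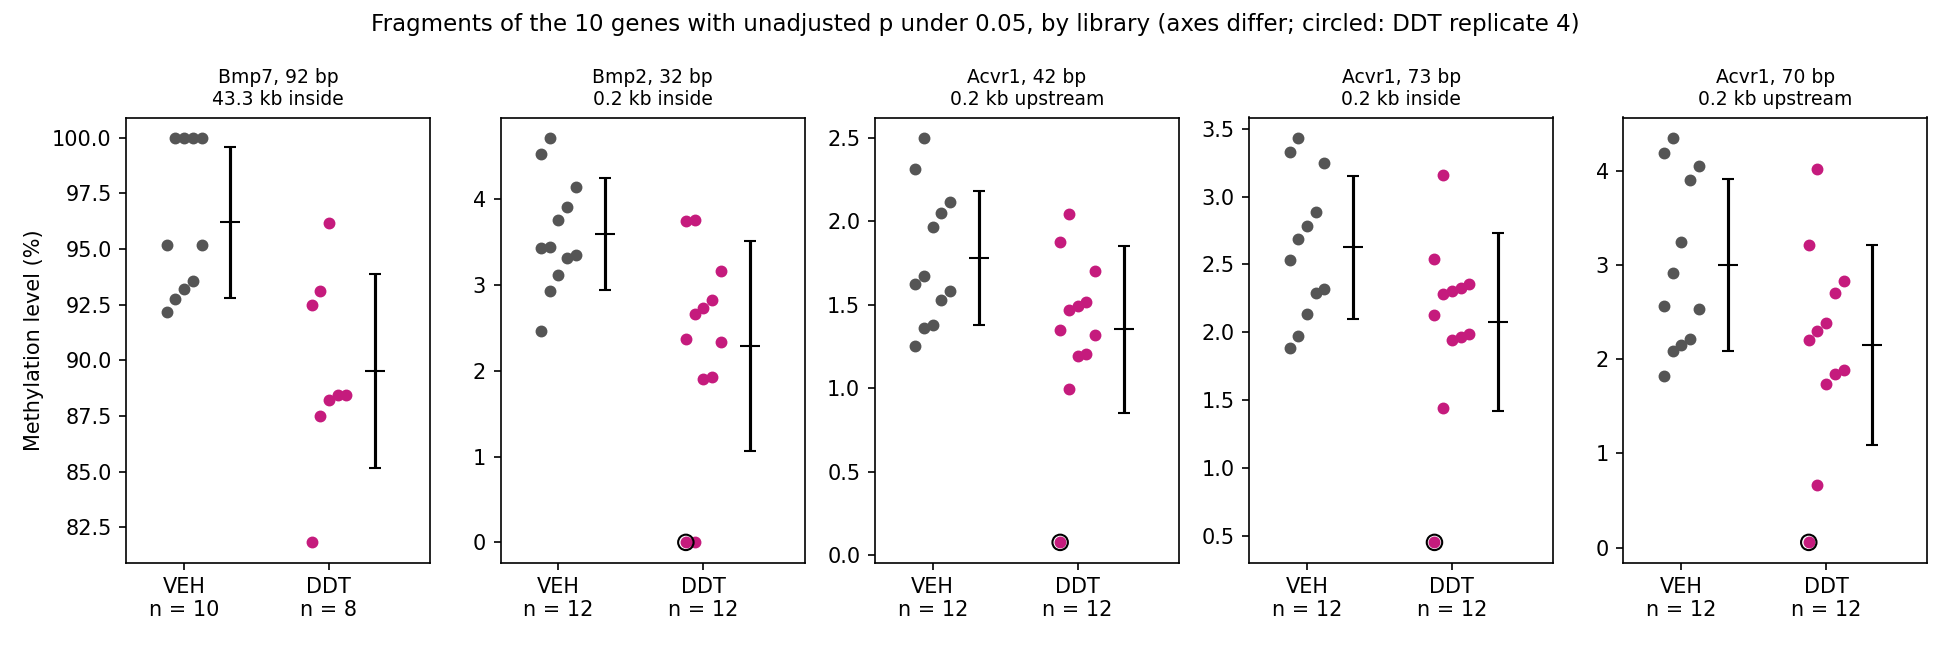
Methylation level (y axis, %, scales differ and do not start at 0) of each library in VEH (grey) and DDT (pink) for the 5 fragments with an unadjusted p under 0.05, bars showing mean ± SD. DDT replicate 4 (circled) is the lowest library in the Acvr1 panels and at 0% with DDT replicate 12 in the Bmp2 panel, and has no level in the Bmp7 panel.

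In the remaining genes the fragment with the smallest p did not pass 0.05 even unadjusted. The smallest of these were in Inhbb 755 bp inside the gene, with 4.33% ± 1.31 in VEH and 3.32% ± 1.44 in DDT (permutation p = 0.0842), and in Bmpr2 76 bp upstream of the annotated start, with 1.93% ± 0.41 and 1.55% ± 0.62 (permutation p = 0.0858). Grem1 followed with 5.13% ± 1.34 and 3.93% ± 2.02 in an intron (permutation p = 0.104), and Acvr1c with 13.4% ± 3.09 and 10.7% ± 4.67 (permutation p = 0.111). For Id1 the smallest was 12194 bp upstream, 5.12% ± 0.96 against 6.30% ± 2.82 (permutation p = 0.193), and for Acvr2a and Mstn the permutation p was 0.201 for both. Several of these values were larger with DDT replicates 4 and 12 than without them: without both, the difference went from -1.21 to -0.42 in Grem1, from -2.70 to -0.90 in Acvr1c, from -0.38 to -0.15 in Bmpr2 and from 1.18 to 0.45 in Id1, while in Inhbb it went from -1.01 to -0.90. In the Grem1 fragment with GGCGCC, VEH was at 1.20% ± 1.15 and DDT at 1.60% ± 1.98 (permutation p = 0.616). At the fragment just upstream of Acvr2a the means were 5.69% ± 8.93 and 1.82% ± 2.17, but the medians 1.98% and 1.27%, with VEH replicate 12 at 28.6% and VEH replicate 4 at 18.5%.

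Of the 4 largest positive differences, 3 rested on DDT replicate 4. In the Bmpr2 island, 116 bp upstream of the annotated start, VEH was at 14.9% ± 2.75 and DDT at 21.2% ± 24.9, and DDT replicate 4 had 835 methylated of 842 calls where the other libraries reached at most 19.4%. The difference was 6.24 with it and -0.85 (p = 0.565) without it. In the pair of Acvr1 exon fragments 51045 and 51006 bp inside, DDT replicate 4 was at 100% on 91 calls and at 97.9% on 96 calls, against at most 37.4% and 23.5% in the others, and the differences went from 4.84 and 5.68 to -1.76 and -0.99 without it. The remaining one, in the Acvr1 island 503 bp inside the gene, did not rest on it. There VEH libraries lay between 0% and 34.4% (median 18.1%) and DDT libraries between 0% and 66.7% (median 24.1%) on a median of 49 calls. Its difference was 5.60 (p = 0.329), 7.84 (p = 0.160) without DDT replicate 4 and 8.81 (p = 0.129) without both, but a regression on the calls themselves gave -5.28 (p = 0.357). At a Bmp7 intron fragment with 64.0% ± 4.77 in VEH DDT replicate 4 was at 100% on 53 calls, and the difference went from 3.51 to 0.27 without it. DDT replicate 12 was at 100% on 16 calls at the Bmp7 intron fragment with 40.7% in VEH, where no other library exceeded 49.4%. After the printed Bmp7 fragment, the largest negative difference was -5.83 (p = 0.389), at the Acvr2a fragment starting at 48310060. DDT replicate 3 was at 25.0% there, and the next lowest library was at 82.4%. The difference without DDT replicate 3 is not given here.

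Gene-level values averaged, over a gene's tested fragments, the deviation of a library's level from the fragment's mean over libraries. Of 3101 tested genes, 114 had an unadjusted p under 0.05 (3.68%) and 0 an adjusted one, and among the 10 genes none had either. Inhbb had the smallest p, with a DDT minus VEH difference of -0.51 percentage points (95% interval -1.15 to 0.13, permutation p = 0.108). Its VEH libraries lay between -0.37 and 1.39 (median 0.00) and its DDT libraries between -2.74 and 0.96 (median -0.08). The DDT minimum was DDT replicate 4, and without that library the difference was -0.29 (p = 0.212). Mstn (1.09, permutation p = 0.201), Grem1 (-0.97, p = 0.257 by permutation) and Acvr2a (-0.70, permutation p = 0.300) came next. DDT replicate 3 was the highest library in Mstn and the lowest in Acvr2a. With single libraries left out, the Mstn difference was 0.57 at its lowest. The Acvr2a value includes fragments assigned to it from far upstream of the gene. The differences for Acvr1c (-0.53), Acvr1 (0.47), Bmpr2 (0.68), Id1 (-0.30) and Bmp2 (0.18) were within intervals that included 0. DDT was lower in 5 of the 10 genes, against 60.0% of the genes of the table.

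The gene-level value of Bmp7 was the widest, with a difference of 3.24 points and an interval of -3.33 to 9.80 (permutation p = 0.435). VEH libraries lay between -2.72 and 2.19, and DDT libraries between -4.10 and 34.3, the last being DDT replicate 4, which had a level at 1 of the 6 fragments. Without DDT replicate 4 the difference was 0.38 (p = 0.792), and without DDT replicate 12 as well it was -0.64 (p = 0.586). For Acvr1, Bmpr2 and Id1 the difference without DDT replicate 4 was -0.03, -0.05 and 0.41, each of the opposite sign to the value over all 24 libraries.

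**Figure D5:**
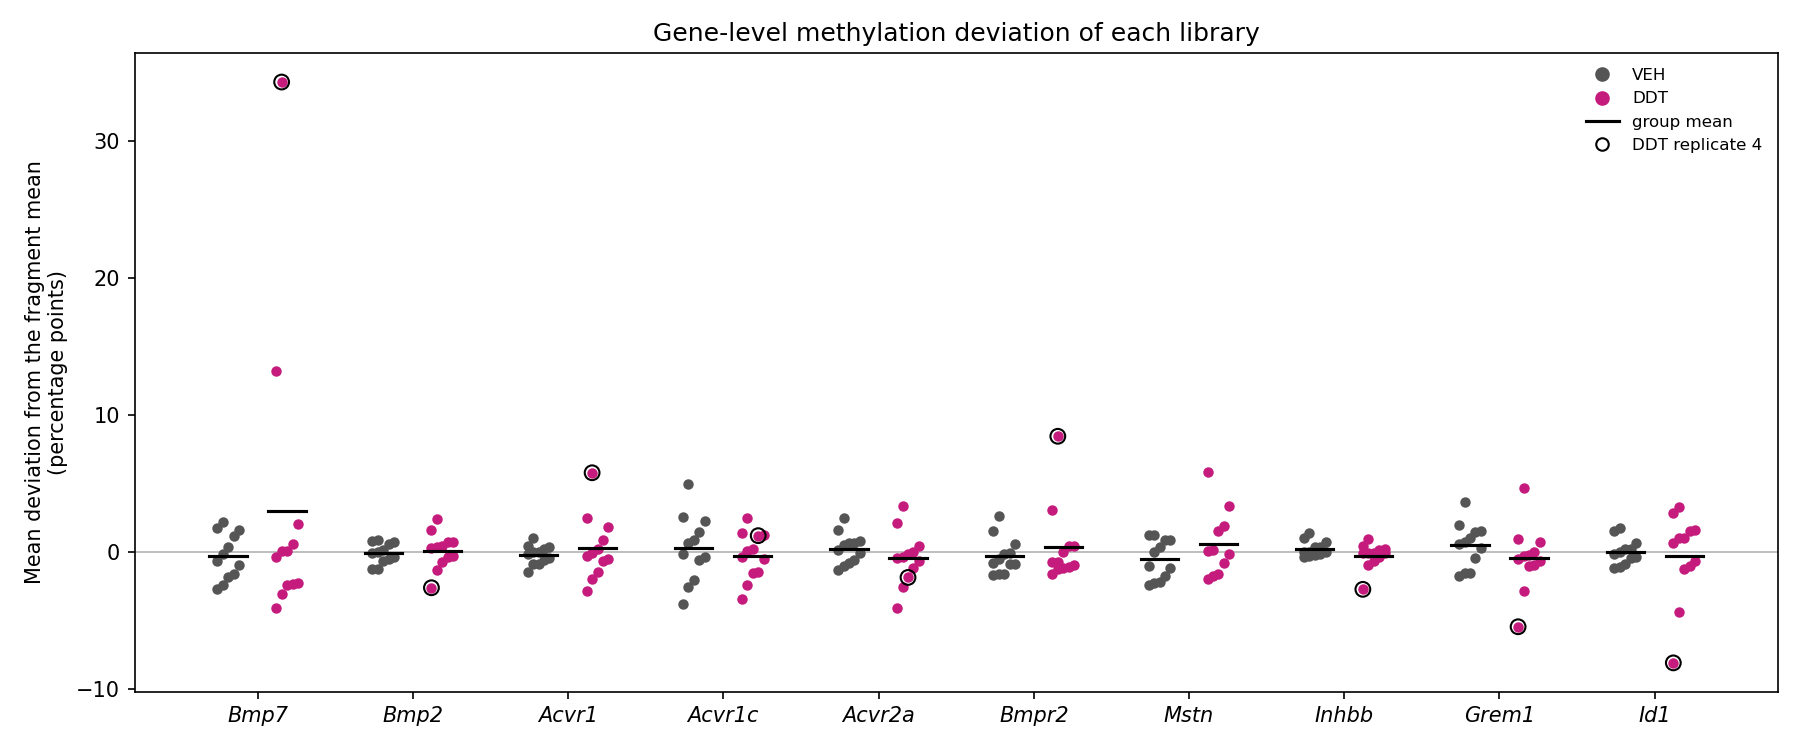
Gene-level deviation of each library from the fragment means (y axis, percentage points) in VEH (grey) and DDT (pink) for the 10 genes (x axis), with group means as black lines. DDT replicate 4 (circled) lies at 34.3 in Bmp7 and is the extreme library in 7 of the 10 genes.

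Few other genes of the pathway had tested fragments. Of a list of 98 ligands, receptors, antagonists, SMADs and targets, 13 genes besides these 10 had tested fragments, 103 in all. Of these 2 had an unadjusted p under 0.05 (1.94%, against 4.18% of the table), both lower in DDT, and 0 an adjusted one. They were in Hfe2, the gene of the BMP co-receptor hemojuvelin, at 12.6% ± 3.46 in VEH and 7.57% ± 5.07 in DDT (p = 0.00962), and in Lefty2, an inhibitor of Nodal, at 7.08% ± 1.47 and 5.67% ± 1.36 (p = 0.0237). Without DDT replicate 4 the differences went from -5.03 to -4.34 (p = 0.0192) in Hfe2 and from -1.41 to -1.16 (p = 0.0463) in Lefty2, and without DDT replicate 12 as well to -3.51 (p = 0.0395) and -0.98 (p = 0.0885). Inha, the inhibin alpha subunit, had 1.89% ± 1.33 and 1.03% ± 0.57 (p = 0.0532), Cfc1, a Nodal co-receptor, 36.8% ± 5.93 and 42.0% ± 6.13 (p = 0.0561), and Skil, a repressor of SMADs, 50.7% ± 13.3 and 40.2% ± 12.1 (p = 0.0620).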

How the data were processed

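BAT of 12 VEH and 12 DDT litters was analysed by RRBS with 50 bp single-end reads. The authors trimmed the reads with Scythe and Sickle, aligned them to GRCm38 with Bismark 0.15.0 and Bowtie2, and deposited counts of methylated and not methylated CpG calls per MspI fragment, not normalized, with gene and CpG island annotation. Removal of filled-in end positions is not given in the sources used here. The table covers chromosomes 1, 2 and part of 3, and other chromosomes were not analysed here. Gene parts came from GENCODE, and promoter windows from RefSeq (GRCm38.p6).

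Levels were compared by the ANOVA F test named in the study's statistics, with Benjamini-Hochberg adjustment over 20225 fragments or 3101 genes (threshold 0.05). The study ran its test in a differential methylation package and reported differentially methylated genes in infants exposed to DDT. Its filters were not matched here. It describes genome-wide regions, while the table used here ends within chromosome 3, so its calls are not compared with these. Single fragments were compared by two-sided permutation tests with 100000 resamples, exact where a group had fewer than 10 libraries. Alternatives were a quasi-binomial regression, limma 3.58.1 on log2 ratios of calls with 1 added to each, other call minimums, a depth covariate, a replicate block and left-out libraries. The tests were tried on simulated calls. Calls from PCR copies are not independent molecules. The most alike libraries (VEH replicate 12 and DDT replicate 11) had a mean chi-square of 1.89 per fragment. Named fragments were, for each gene, the one nearest the start, the one with the smallest p and the one with the largest SD in VEH, and the 5 other pathway genes with the smallest p. Fragments beyond these were named after their values were seen. The 10 genes and the pathway list were chosen with earlier results of these data known. Python 3.11.15, NumPy 2.4.6, pandas 2.3.3, SciPy 1.17.1 and R 4.3.3 were used.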

Additional observations from a re-analysis of the deposited data

Results flagged for a closer look

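In a Bmpr2 island fragment, 467 bp upstream of the annotated start and with a median of 29.5 calls, 1 of 10 VEH libraries lay far from the rest. VEH replicate 9 was at 32.1%, and its gap to the next library was 0.751 of the whole VEH range. The group means were 6.18% ± 9.68 in VEH and 3.87% ± 7.40 in DDT (permutation p = 0.509), and without that library the difference changed from -2.31 to 0.58 percentage points. The 0.58 still includes DDT replicate 10, at 25.0%, where no other DDT library exceeded 6.42%. The difference without both libraries is not given here. Among 6 groups of 4 to 10 libraries examined this was the only such library. The cutoff is set for 1 in 20 groups of normally distributed values. Several libraries here were at 0%, so that rate need not hold, and how often chance gives such a gap was not tested. Larger groups, such as the DDT group of this fragment with 11 libraries, were not examined.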

How the results depend on the processing

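The number of fragments and genes with an adjusted p under 0.05 was 0 among the 10 genes, and 0 fragments in the table, under every alternative run. The count of fragments of the 10 genes at an unadjusted p under 0.05 was 5 in the main run. It was 7 with the quasi-binomial regression (7.72% over the table), 2 with limma and 3 with total calls as a covariate. Among fragments over 50 bp it was 3, and without DDT replicate 4 and DDT replicate 12 also 3 (4.51% over the table). With single libraries left out it was 3 to 6, with 3.70% to 5.38% in the table. The table's shares under limma, the covariate and the length restriction are not given here. Those counts are therefore not read as changes in these genes. Both restrictions, to fragments over 50 bp and without DDT replicate 4 and DDT replicate 12, were chosen after seeing the data. Of the 5 fragments 0 changed sign under the alternatives that gave a value. The Bmp7 fragment gave none with a minimum of 20 calls, in fragments with all 24 libraries or without both DDT libraries, and its p was 0.237 with a minimum of 5 calls and 0.495 with none. Over 50 bp, 1 of the 10 genes, Inhbb, had an unadjusted p under 0.05 (-0.78 points, p = 0.0387). The share of the table's genes under this restriction is not given here, and over all fragments it was 3.68%.

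The other values are small differences that failed the threshold on either side of 0. Gene-level signs changed for Id1 with a minimum of 5 calls (0.48), of 20 calls (0.00056) and none (0.48), for Bmp2 (-0.30), Acvr1 (-0.13), Acvr1c (0.95) and Inhbb (0.060) with no minimum, for Bmp2 in fragments with all 24 libraries (-0.032), for Acvr1 weighted by calls (-0.075), for Bmp7 (-0.24) and Acvr1c (0.16) over 50 bp, and without both DDT libraries for Bmp7 (-0.64), Bmpr2 (-0.12) and Id1 (0.12). With single libraries left out the gene-level differences ranged from 0.38 to 5.87 in Bmp7, -0.024 to 0.43 in Bmp2, -0.032 to 0.76 in Acvr1, -0.90 to -0.096 in Acvr1c, -1.06 to -0.33 in Acvr2a, -0.046 to 0.96 in Bmpr2, 0.57 to 1.35 in Mstn, -0.63 to -0.29 in Inhbb, -1.44 to -0.52 in Grem1 and -0.65 to 0.41 in Id1. The libraries whose absence changed a sign were DDT replicate 4 (Acvr1, Bmpr2, Id1) and DDT replicate 3 (Bmp2, Id1). 

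Of the 28 named fragments, 10 changed sign under at least 1 alternative. The Acvr1 fragment 503 bp inside the gene gave -5.28 points with the quasi-binomial regression and -0.053 with limma on the log2 scale, and the Acvr2a fragment 14 bp inside gave -0.26 with limma. The Id1 fragment 998 bp upstream gave 0.60 with a minimum of 5 calls or none and 0.0047 without both DDT libraries. The Bmp7 fragment 51485 bp inside gave -1.06 with 5 calls and -9.64 with no minimum, and the Bmp2 fragment 670 bp inside 0.11 with total calls as a covariate and 0.57 without both DDT libraries. Without both, the Inhbb fragment at its start gave 0.030 and the Bmp2 fragment at its start 0.080. When single libraries were left out, named fragments that changed sign ranged from -4.42 to 0.58 (Bmpr2, 467 bp upstream), -0.73 to 1.08 (Acvr2a, 14 bp inside), -0.14 to 0.70 (Grem1, 50 bp upstream), -0.23 to 0.080 (Bmp2, at the start), -3.83 to 1.20 (Bmp2, 670 bp inside), -2.31 to 1.32 (Id1, 998 bp upstream) and -0.45 to 0.18 (Bmp7, 23787 bp inside). The causes were not tested.

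The groups share replicate numbers, and the sample labels do not say whether same-numbered litters were paired. Over 10399 fragments the correlation of deviations of same-numbered libraries ran from -0.180 to 0.199, with 3 of 12 over 0.1, and 1 VEH library correlated best with its own number. Pairing was therefore not seen, but such correlations cannot exclude it. With the replicate number as a block, 6 of the 98 fragments passed unadjusted and 0 adjusted. The table's unadjusted share with this block is not given here. Depth limits the fragments outside island cores, with a median of 151 calls outside islands and 140.0 in shores and shelves against 704 within islands.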
